A study of Mus musculus with 6 samples.

Results

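Mir99ahg and Mir670hg are long non-coding RNA (lncRNA) genes that host microRNAs, and 9 of the 3093 lncRNA transcripts measured in mouse pancreatic islets lay in them. A transcript was taken as a member when its interval overlapped the GENCODE M21 body of either gene more than that of any other gene. By this rule 7 transcripts belonged to Mir99ahg and 2 to Mir670hg, and 0 further transcripts touched either gene. The islets, which are the endocrine cell clusters of the pancreas, came from C57BL/6 mice after 8 weeks on a high-fed diet (HFD, 3 libraries) or a normal chow diet (NCD, 3 libraries). The labels used here give neither the sex nor the age of the mice, nor whether a library came from 1 mouse or a pool. The db/db mice named in the title were not analysed here.

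The table held 1 FPKM for HFD and 1 for NCD per transcript (fragments scaled to transcript length and to the mapped fragments of the sample), with no value per library. No standard deviation and no test between diets can therefore be given, and each difference below is between 2 group values without a replicate check. Each log2 ratio is log2(HFD FPKM + 0.1) minus log2(NCD FPKM + 0.1), a scale on which differences of low transcripts are understated. All 3093 transcripts had a median log2 ratio of -0.82, so most of the table was lower in HFD. Of 11 beta cell marker genes 2 held a transcript (Isl1 and Pax6), and the insulin genes held none. The islet label could therefore not be checked against its defining markers in this table of lncRNAs. The 3 beta marker transcripts touched exons of their genes, with log2 ratios of -1.26 (Isl1), -0.41 and -0.49 (Pax6). The lists of other endocrine, acinar, endothelial, stromal and immune markers held 0 transcripts. Of 4 duct markers 1 held a transcript, a 257-base interval in the epithelial adhesion gene Epcam that touched none of its exons. This transcript was at 5.01 FPKM in HFD and 21.8 FPKM in NCD (log2 ratio -2.10), and does not measure spliced Epcam RNA. Its part in the results was not tested.

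A microRNA is cut from a long primary transcript in the nucleus by Drosha and its partner Dgcr8. The resulting hairpin is trimmed by Dicer, and the mature strand guides an Argonaute protein to messenger RNAs that pair with its seed. Mir99ahg carries the hairpins of miR-99a, let-7c and miR-125b, a cluster conserved in vertebrates. The let-7 family is known for promoting differentiated states and is opposed by the RNA-binding proteins Lin28a and Lin28b, and miR-125b is the vertebrate relative of worm lin-4. Mir670hg carries the hairpins of miR-670 and miR-129. The table measured long transcripts and not mature microRNAs.

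The mature microRNAs of both hosts are given first, because the seed, bases 2 to 8 in capitals, sets their targets and groups them into families (RefSeq, GRCm38.p6, 5′ to 3′).
mmu-miR-99a-5p: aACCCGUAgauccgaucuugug
mmu-let-7c-5p: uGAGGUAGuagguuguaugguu
mmu-miR-125b-5p: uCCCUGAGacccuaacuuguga
mmu-miR-670-5p: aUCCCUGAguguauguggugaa
mmu-miR-129-5p: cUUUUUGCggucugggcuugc
The miR-99a seed was shared with 2 other mature mouse microRNAs in the RefSeq table (miR-99b-5p and miR-100-5p), the let-7c seed with 10 and the miR-125b seed with 4, while those of miR-670-5p and miR-129-5p were shared with 0. Across the hosts, miR-125b-5p and miR-670-5p had the run UCCCUGAG in common, at bases 1 to 8 of miR-125b-5p and bases 2 to 9 of miR-670-5p. That run sits 1 base further along in miR-670-5p, so the seeds themselves differ. Of 1674 distinct mature sequences, 6 held that run within their first 10 bases.

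Mir99ahg lay on the plus strand of chromosome 16 from 77236317 to 77773427 (GRCm38), a body of 537 kb with 17 annotated isoforms. Its 3 microRNA genes lay far inside it. The hairpin of Mir99a began at 77598936, that of Mirlet7c-1 at 77599657 and that of Mir125b-2 at 77646273. All 3 hairpins fell in introns of 4 annotated isoforms and touched no Mir99ahg exon. The 7 measured transcripts were also intronic, carried 7 separate locus identifiers and contained none of the hairpins. Their spans ran from 296 to 608 bases. Without strand in the file, a transcript in an intron cannot be told from unspliced RNA of the host. In the RefSeq annotation Mir99ahg ended at 77558428, which is 40.5 kb before Mir99a, and 1 of the 7 transcripts lay inside that body, so the naming of the other 6 after Mir99ahg rests on the GENCODE model.

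Along the gene, 1 transcript lay far upstream of the microRNA genes, 1 lay closer upstream, and 5 lay between Mirlet7c-1 and Mir125b-2. Those 5 shared a single intron of 73.4 kb with all 3 hairpins (isoform Mir99ahg-211, 77596960 to 77670352), and in each of the 4 isoforms with such an intron it spanned both these transcripts and the hairpins. Of the 7 transcripts, 5 were lower in HFD and 2 were higher, where 80% of all transcripts were lower and 20% higher, with a median log2 ratio of -0.61 against -0.82 for all transcripts. Fewer cells of a type and less RNA per cell cannot be told apart in bulk islets. The Mir99ahg median was thus 0.21 above that of the whole table.

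The transcript farthest upstream (TCONS_00040956, 77461968 to 77462546, 136 kb before Mir99a) was at 0.214 FPKM in HFD and 1.01 FPKM in NCD. Its log2 ratio of -1.82 was the lowest of the gene, and 15.0% of all transcripts had a lower ratio. The next one downstream was the shortest of the 7 (TCONS_00040966, 77579689 to 77579984, 19.0 kb before Mir99a) and was higher in HFD, at 1.64 FPKM in HFD and 0.593 FPKM in NCD (log2 ratio 1.33).

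Beyond the Mir99a and Mirlet7c-1 hairpins, the transcripts differed in direction within a short stretch. The transcript nearest to Mirlet7c-1, 5.20 kb after it (TCONS_00040971, 77604946 to 77605374), was at 0.704 FPKM in HFD and 1.13 FPKM in NCD, a log2 ratio of -0.61. The one 10.7 kb after Mirlet7c-1 (TCONS_00040972, 77610423 to 77610884) had the highest NCD level of the gene, at 1.36 FPKM in HFD and 3.27 FPKM in NCD (log2 ratio -1.21). A 370-base transcript (TCONS_00040974, 77621952 to 77622321) lay nearly midway between the outer hairpins, 23.0 kb after Mir99a and 24.0 kb before Mir125b-2. It had the highest HFD level of the gene, at 2.30 FPKM in HFD and 0.798 FPKM in NCD (log2 ratio 1.42). Its neighbour, 1296 bases downstream (TCONS_00040975, 77623618 to 77624144), was at 0.679 FPKM in HFD and 1.65 FPKM in NCD (log2 ratio -1.17). This pair lay in 1 intron and close together. The 370-base transcript was above the table's median of -0.82. The 527-base one, at -1.17, was near the median of intronic transcripts of 200 to 700 bases, -1.16. The last transcript, 14.8 kb before Mir125b-2 (TCONS_00040976, 77630910 to 77631517), was the closest to that hairpin, at 0.507 FPKM in HFD and 0.724 FPKM in NCD (log2 ratio -0.44).

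**Figure D1:**
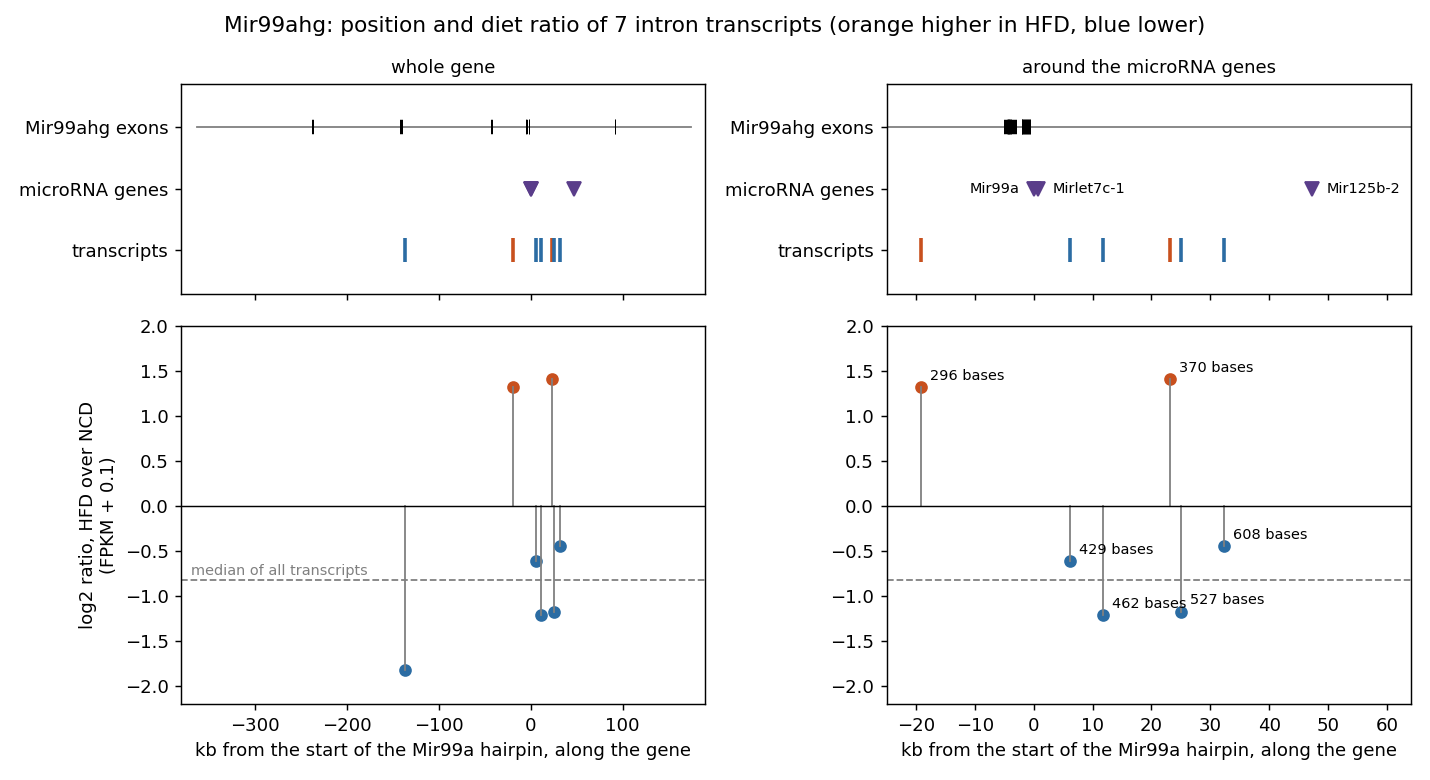
Position of the 7 Mir99ahg transcripts against the annotated exons and the 3 microRNA genes (upper panels, in kb from the start of the Mir99a hairpin; the whole gene at left, the microRNA genes at right) and their log2 ratio of HFD over NCD (lower panels; 1 point per transcript, dashed line at the median of all transcripts, -0.82). The 296-base and 370-base transcripts stand at 1.33 and 1.42, and the other 5 lie between -1.82 and -0.44.

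The fragments behind these values were few. From the steps in the low values of each column, the total was estimated at 77700000 fragments in HFD and 60600000 in NCD. This estimate assumes a single pool of fragments behind each column. The 7 Mir99ahg transcripts then stood for 78 fragments in HFD and 106 in NCD in all. The 296-base transcript stood for 4 fragments in HFD and 1 in NCD, and the exact 95% counting interval of its depth-scaled log2 ratio, -1.70 to 7.26, included 0. The 370-base transcript stood for 16 fragments in HFD and 4 in NCD, with an interval of 0.01 to 3.68. Its NCD estimate was 4.23 before rounding to whole fragments, and its interval excluded 0 only narrowly. That of the 527-base neighbour, 13 fragments in HFD and 24 in NCD, was -2.34 to -0.21 and did not overlap it. This pair was singled out after the values were seen, and the intervals were not adjusted for that, so they do not test the contrast. The 579-base transcript upstream had 5 fragments in HFD and 18 in NCD (interval -3.99 to -0.72), and the 462-base one had 19 in HFD and 35 in NCD (-2.13 to -0.39). The intervals of the 429-base transcript (8 fragments in HFD and 10 in NCD, -2.22 to 0.81) and of the 608-base transcript (13 in HFD and 14 in NCD, -1.67 to 0.73) included 0.

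Summed over the 7 transcripts, the depth-scaled log2 ratio was -0.80 with a counting interval of -1.24 to -0.37. The interval excluded 0 but held the median log2 ratio of all transcripts, -0.82. It also held that of intronic transcripts of 200 to 700 bases, -1.16. These medians weight transcripts equally and carry the pseudocount of 0.1 FPKM, whereas the sum weights them by fragments without it. On this rough comparison the sum did not set Mir99ahg apart from the table as a whole. The summed FPKM, which weights short transcripts more, was 7.41 in HFD and 9.17 in NCD. The intervals cover counting error in the 2 columns and not variation between mice.

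**Figure D2:**
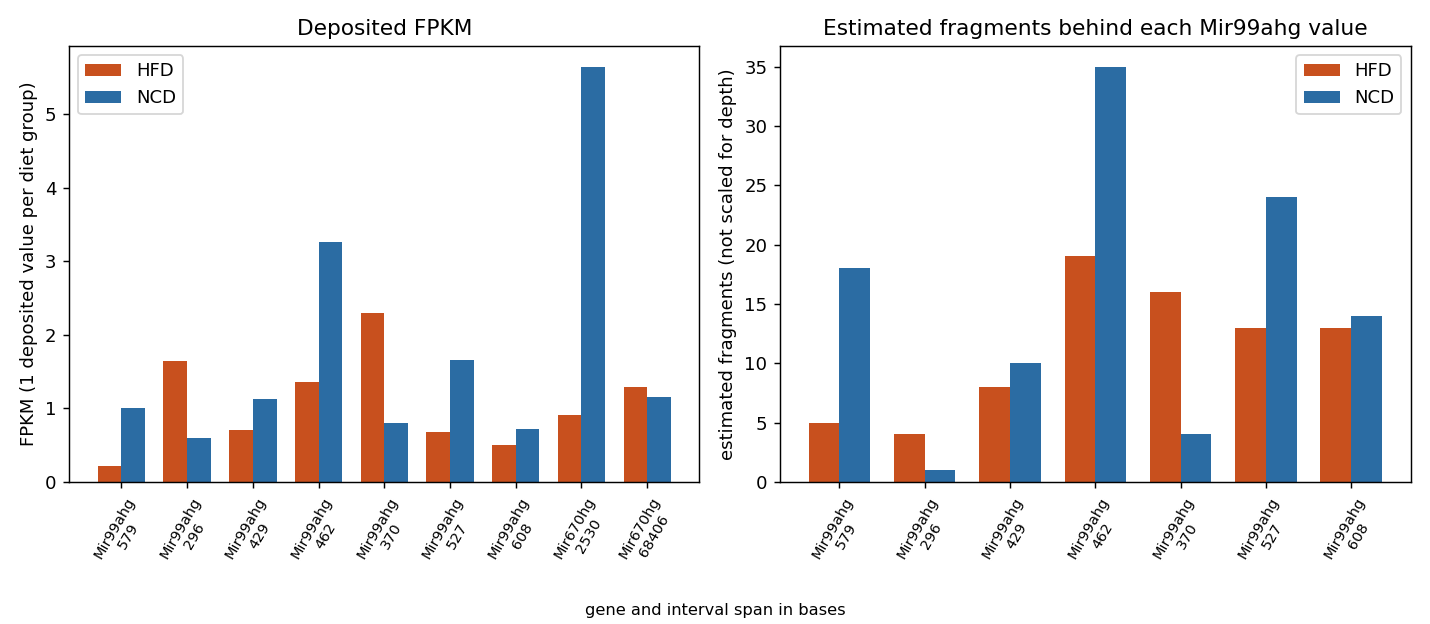
Deposited FPKM of the 9 transcripts (left; HFD and NCD bars, 1 value per diet group, no error) and estimated fragments behind the 7 Mir99ahg values (right), each labelled by gene and span in bases. The tallest NCD bar is the 2530-base Mir670hg transcript at 5.65 FPKM, and the Mir99ahg fragments lie between 1 and 35.

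Mir99ahg was compared with the other genes that held several transcripts. Its log2 ratios spanned 3.23 units, the 11th widest range among the 67 genes with at least 5 transcripts, whose median range was 1.97. Among the 36 of these genes with 6 to 8 transcripts it was the 3rd widest. Transcripts at least 2-fold higher and transcripts at least 2-fold lower occurred together in 8 of the 67 genes, Mir99ahg included. The genes nearest to it in median log2 ratio were the nuclear receptor gene Hnf4g (-0.62), the cAMP phosphodiesterase gene Pde4d (-0.58) and the forkhead factor gene Foxn3 (-0.65), a likeness over a single ratio per transcript.

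By size, 4 of the 9 members of Mir99ahg and Mir670hg had an at least 2-fold lower value in HFD, as did 41.9% of all transcripts. An at least 2-fold higher value was seen for 2 of the 9 and for 6.27% of all transcripts, and these 2 were the shortest Mir99ahg transcripts, with few fragments in NCD. Among intronic transcripts alone, 48.8% were at least 2-fold lower and 4.43% at least 2-fold higher, and the 7 Mir99ahg transcripts gave 3 and 2. Among intronic transcripts of 200 to 700 bases, a range that holds all 7 spans, 56.2% were at least 2-fold lower and 6.91% at least 2-fold higher, with a median log2 ratio of -1.16.

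Mir670hg lay on the minus strand of chromosome 2 from 94160636 to 94264918, a body of 104 kb with 7 annotated isoforms. The Mir670 hairpin (94261300 to 94261399) lay 3.52 kb from the gene's start and overlapped 22 bases of an exon of isoform Mir670hg-202, while Mir129-2 (94241364 to 94241453) lay 23.5 kb from the start in an intron. Mir129b lay opposite Mir129-2 on the plus strand, and Gm23630, a further annotated microRNA gene, lay 80.8 kb from the start. The hairpins of Mir670 and Mir129-2, the microRNA genes on the host's own strand that 1 of its 2 transcripts spans, are shown with their mature arms in capitals (chr2:94261300-94261399 and chr2:94241364-94241453, minus strand).
Mir670 hairpin: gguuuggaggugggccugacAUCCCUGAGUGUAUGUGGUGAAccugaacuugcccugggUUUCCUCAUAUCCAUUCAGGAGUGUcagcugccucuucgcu
Mir129-2 hairpin: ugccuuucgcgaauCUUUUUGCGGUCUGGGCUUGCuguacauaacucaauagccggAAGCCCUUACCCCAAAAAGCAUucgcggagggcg

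The 2 Mir670hg transcripts shared 1 locus identifier and had an end near the gene's start, but only the longer interval contained microRNA genes. Without strand in the file, their direction is taken here as that of the gene. Only the outer bounds of each interval were used. Annotated isoforms had introns over Mir670 (4 isoforms) and Mir129-2 (3 isoforms), so the FPKM of the long transcript need not measure RNA that holds a hairpin. The long one (TCONS_00063150, 94196203 to 94264608, 68406 bases) spanned Mir670, Mir129-2 and Mir129b. It was at 1.29 FPKM in HFD and 1.16 FPKM in NCD, a log2 ratio of 0.14. The short one (TCONS_00063158, 94262196 to 94264725, 2530 bases) stopped 796 bases before the Mir670 hairpin and held no microRNA gene. It was at 0.910 FPKM in HFD and 5.65 FPKM in NCD, a log2 ratio of -2.51, and 7.02% of all transcripts had a lower ratio. The long transcript was thus slightly higher in HFD in a table mostly lower, where 83.1% of transcripts had a lower ratio. The short one was 6.21-fold lower in plain FPKM. Both touched exons of Mir670hg, whereas 2054 of the 3093 transcripts were intronic, with a median log2 ratio of -0.98. The shares above are of the whole table, and those among exon-touching transcripts are not given here.

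The short transcript made up 41.4% of the summed FPKM of the pair in HFD and 83.0% in NCD. In HFD it was at 0.706 times the level of the long one, and in NCD at 4.87 times. The log2 ratios of the pair differed by -2.65 (short minus long). Of the 46 locus identifiers that held more than 1 transcript, the Mir670hg locus had the largest difference at the pseudocount of 0.1 FPKM, ahead of a locus outside annotated genes (2.25) and of a locus in Pafah1b1 (2.21). At a pseudocount of 0.01 FPKM it was 2nd, at 2.77, behind that unannotated locus at 2.91. At 0.1 FPKM the median difference was 0.61, and in 15 of the 46 the transcripts lay on opposite sides of 0, as in Mir670hg. If its interval was transcribed without splicing, the short transcript stood for about 159 fragments in HFD and 769 in NCD. How the authors' quantification divided reads between overlapping isoforms decides such values, and its part in the difference was not tested.

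**Figure D3:**
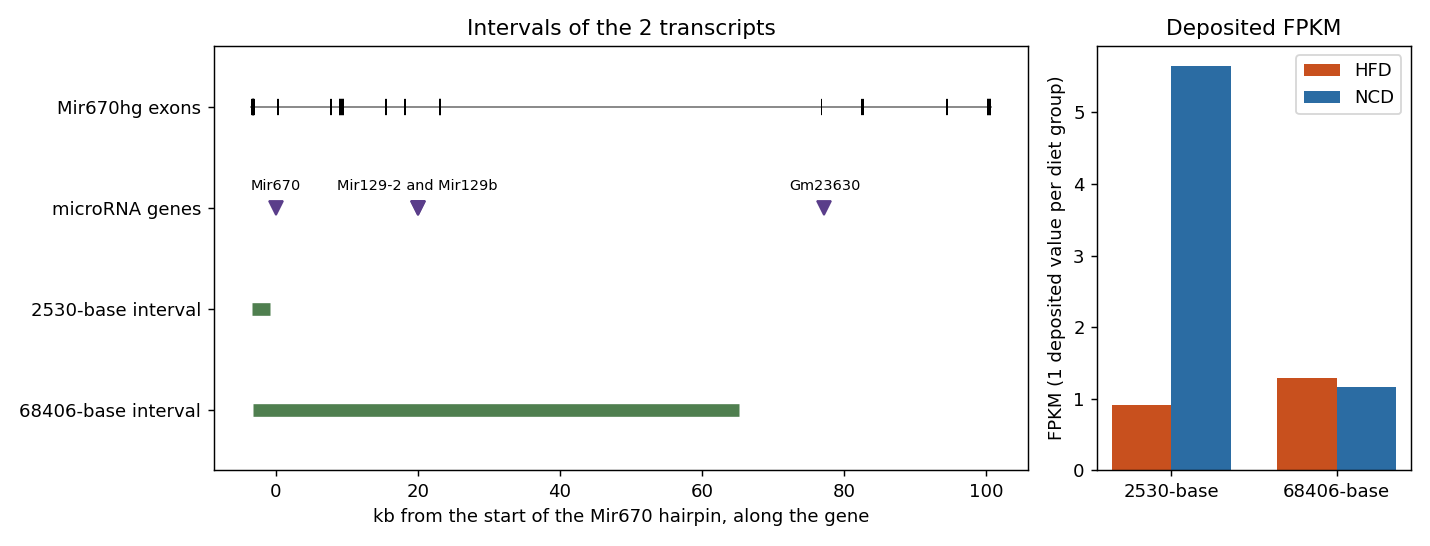
Intervals of the 2 Mir670hg transcripts against the annotated exons and microRNA genes (left, in kb from the start of the Mir670 hairpin in the direction of the annotated gene) and their deposited FPKM (right; HFD and NCD bars, 1 value per diet group, no error). The 2530-base interval ends before Mir670 and differs between diets, at 0.910 FPKM in HFD and 5.65 in NCD, whereas the 68406-base interval spans Mir670 and Mir129-2 and stands at 1.29 in HFD and 1.16 in NCD.

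The upstream ends of both intervals matched annotated isoform starts to the base. Whether these ends were measured or carried over from an annotation is not known, because the assembler was not given. The short one began where Mir670hg-205 begins, and the long one where Mir670hg-207 begins, 117 bases further downstream. RefSeq placed its farthest upstream start of the gene 378 bases before the short transcript. The first exon of Mir670hg-205 (chr2:94264522-94264725, minus strand, 204 bases, from the GENCODE M21 transcript) is shown because it holds both starts. Capitals mark the 117 bases within the short interval alone, and lower case the 87 bases within both.
Mir670hg-205 first exon: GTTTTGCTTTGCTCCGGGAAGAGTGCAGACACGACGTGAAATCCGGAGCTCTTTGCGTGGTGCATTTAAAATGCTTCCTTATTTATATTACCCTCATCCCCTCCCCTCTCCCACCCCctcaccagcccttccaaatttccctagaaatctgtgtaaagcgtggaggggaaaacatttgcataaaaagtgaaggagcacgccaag

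**Figure D4:**
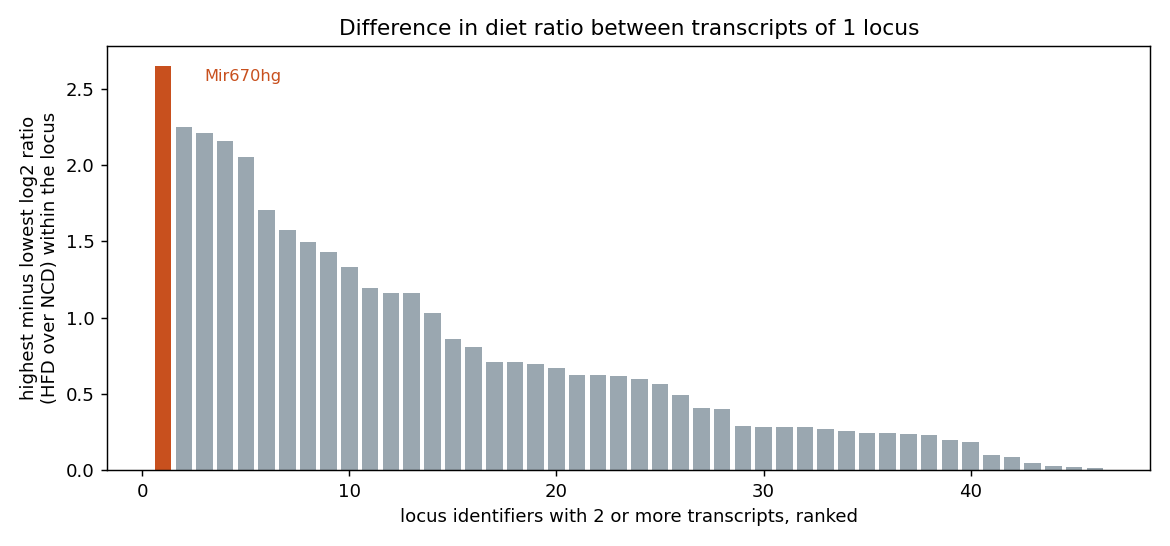
Difference between the highest and the lowest log2 ratio (HFD over NCD) within each of the 46 locus identifiers with more than 1 transcript, ranked, at a pseudocount of 0.1 FPKM. The Mir670hg locus stands first at 2.65, followed by loci at 2.25 and 2.21, and the median is 0.61.

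The long Mir670hg transcript was 1 of 13 intervals of the table that contained an annotated microRNA gene. Itself included, 3 were higher in HFD and 10 lower, with a median log2 ratio of -0.88, close to that of all transcripts. The long Mir670hg transcript had the 3rd highest ratio, below those with Mir325 (0.77) and Gm24544 (0.24). The interval over Mir7-2, which makes miR-7, a microRNA abundant in islets, followed at 2.47 FPKM in HFD and 2.72 FPKM in NCD (-0.13). The interval over Mir7b was at 1.41 FPKM in HFD and 4.02 FPKM in NCD (-1.45). The interval over Mir216a, Mir216b and Mir217, microRNAs known from exocrine pancreas, was at 0.138 FPKM in HFD and 0.442 FPKM in NCD (-1.19). A transcript over Mir344 genes had the lowest ratio, at 5.77 FPKM in HFD and 28.2 FPKM in NCD (-2.27).

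**Figure D5:**
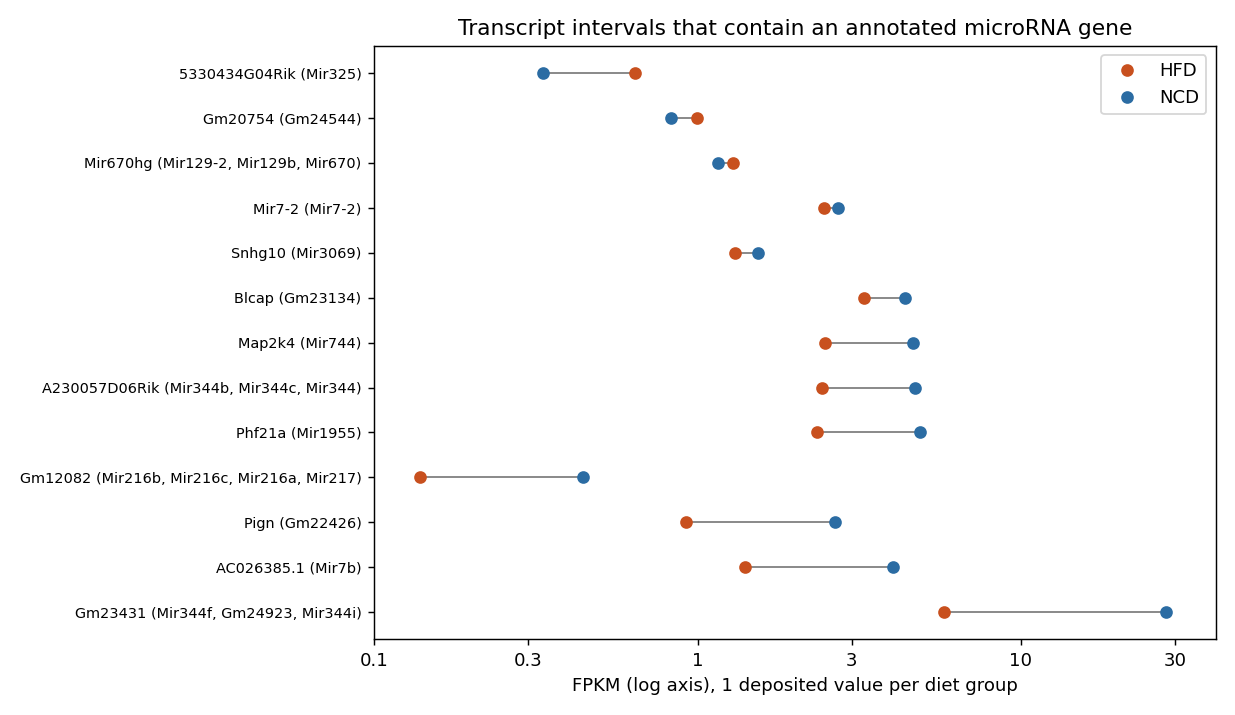
FPKM in HFD and NCD (log axis, 1 value per diet group, no error) of the 13 transcript intervals that contain an annotated microRNA gene, ordered by the ratio of HFD over NCD and named by gene with the microRNA genes in brackets. The long Mir670hg interval is the third from the top, at 1.29 in HFD and 1.16 in NCD.

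Of the 11 other genes whose bodies hold a let-7, miR-99/100 or miR-125 family gene, 0 held a transcript of the table, so Mir99ahg was the only gene holding these families that had a measured transcript. One of the 11, Gm11146, holds the same Mir99a and Mirlet7c-1 hairpins. Mature let-7c-5p and miR-125b-5p are also made from second gene copies elsewhere in the genome, which these values do not cover. The flanks of Mir99ahg were empty, with 0 transcripts within 2 Mb on either side. The nearest lay 4.45 Mb before it in the axon guidance receptor gene Robo1, at 11.8 FPKM in HFD and 29.7 FPKM in NCD (log2 ratio -1.32), and 3.45 Mb after it in the adhesion gene Ncam2, at 0.679 FPKM in HFD and 7.19 FPKM in NCD (-3.23). Within 2 Mb of Mir670hg there were 3 transcripts, all on its low-coordinate side. All 3 were lower in HFD (median -0.80), as were 80% of all transcripts (median -0.82). The nearest on the low-coordinate side, in Gm13807, was 0.745 Mb away, at 0.693 FPKM in HFD and 1.28 FPKM in NCD (-0.80). On the other side the nearest lay 7.78 Mb away in Gm13919, at 5.18 FPKM in HFD and 2.35 FPKM in NCD (1.11).

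Among 2250 transcripts in other named genes, the nearest in level to the short Mir670hg transcript lay in the RNA helicase gene Ythdc2 (0.939 FPKM in HFD and 5.80 in NCD), the lipid-binding protein gene Osbpl10 (0.939 in HFD and 5.80 in NCD) and Wdr70 (0.971 in HFD and 5.89 in NCD). Those nearest to the long one lay in the protein disulfide isomerase gene P4hb (1.26 in HFD and 1.14 in NCD), the transcription factor gene Erg (1.29 in HFD and 1.12 in NCD) and the ubiquitin ligase gene Pdzrn3 (1.34 in HFD and 1.18 in NCD). Likeness was the distance in log2(FPKM + 0.1) over the 2 group values only.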

How the data were processed

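Total RNA from islets was made into TruSeq libraries, per the labels. The authors deposited 1 table with an FPKM per transcript and diet group, per the file headers. The aligner, assembler and quantifier, and how 3 libraries became 1 value, were not given in the sources used here. Intervals were matched to GENCODE M21 on GRCm38, which, with its UCSC name mm10, is the build in the submitters' processing notes.

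The members and gene lists were chosen with earlier results of these data known. All 9 members were named. Other genes were named by family, rank, position or likeness. A floor of 0.1 FPKM in at least 1 group left out 0 transcripts. Differences were described by size (at least 2-fold). With 1 value per group the planned model across libraries could not be fitted.

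Totals and fragment lengths (mean 282 bases in HFD and 284 in NCD) were fitted to transcripts of 200 to 1000 bases after checking on simulated data. In transcripts left out of a first fit, values below 8 fragments were within 0.15 of a whole fragment in 170 of 174 cases in HFD and 93 of 113 in NCD (30% for evenly spread values). Fragments assume unspliced transcripts. Intervals are exact binomial, conditional on the sum. The planned sequence features of the intervals were not computed, because no genome was used here. Python 3.11.15, SciPy 1.17.1 and pandas 2.3.3 were used.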

Additional observations from a re-analysis of the deposited data

How the results depend on the processing

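No paired analysis was possible because each diet group has a single value here, which also kept any library from being left out. Centred on the median of all transcripts, which adds the same amount to every ratio, the Mir99ahg median was 0.21 and that of the neighbours of Mir670hg 0.0225, both above 0; quantile normalization gave 0.21 for Mir99ahg. The 429-base and 608-base transcripts turned positive, at 0.21 and 0.38 after centring and 0.21 and 0.33 after quantile normalization. Restricted to spans of at least 400 bases, which leaves out the 2 transcripts higher in HFD, the Mir99ahg median was -1.17, and the summed ratio without those 2, an alternative chosen after the data were seen, was -1.16; leaving out the higher transcripts makes a lower value by construction. The 4 transcripts at least 2-fold lower became 1 under a 4-fold rule, with a pseudocount of 1, after centring and after quantile normalization. The 2 at least 2-fold higher became 0 under the 4-fold rule and with a pseudocount of 1. Of 28 recomputed ratios of single Mir99ahg transcripts, 4 changed sign, 11 kept it but dropped below 2-fold and 13 kept their direction and side of 2-fold. Both Mir670hg ratios and their difference kept direction and side under each alternative run, but the rank of that difference among loci, added after the data were seen, was 2 instead of 1 with a pseudocount of 0.01. The depth limits the 296-base transcript most, at 4 fragments in HFD and 1 in NCD.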

Other observations

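Genes that hold any annotated microRNA, apart from both hosts, carried 317 transcripts in 152 genes. Of these, 43 were higher and 274 lower in HFD, where 20% of all transcripts were higher and 80% lower. At least 2-fold higher were 9 (2.84%, against 6.27% of all transcripts and 4.43% of intronic ones). At least 2-fold lower were 146 (46.1%, against 41.9% of all and 48.8% of intronic ones). The median log2 ratio was -0.92, against -0.82 for all transcripts and -0.98 for intronic ones. By the mean of both diet groups, the most abundant lay in Gm5441, whose body holds Mir153, at 244 FPKM in HFD and 188 FPKM in NCD (log2 ratio 0.38). Next came a 205-base transcript in the phosphatase gene Ppm1h, at 43.7 FPKM in HFD and 118 FPKM in NCD (-1.43), and the imprinted lncRNA Rian, at 51.9 FPKM in HFD and 47.1 FPKM in NCD (0.14). A 206-base transcript in the phosphatase gene Ptprd was listed at 0 in HFD and at 66.9 FPKM in NCD. The Ppm1h and Ptprd intervals are shorter than the estimated mean fragment (282 bases in HFD and 284 in NCD). At such spans few fragments make a high FPKM, so these 2 values are weak measures of abundance and of the diet difference.

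In genes of the microRNA pathway the table held few transcripts. Of 15 listed genes of microRNA processing and silencing 1 held any, the Argonaute gene Ago3, whose 4 intronic transcripts were all lower in HFD, with log2 ratios from -0.57 to -1.30 (median -0.95). Of all intronic transcripts 1777 of 2054 were lower, with a median of -0.98. Of 14 listed symbols of the let-7 axis 2 held transcripts. The 3 in Tut4, which encodes an enzyme that adds uridines to let-7 precursors, had log2 ratios of -0.39, -0.63 and -1.33. The 1 in the growth factor receptor gene Igf1r was at 7.19 FPKM in HFD and 14.0 FPKM in NCD (-0.95). None of the Tut4 and Igf1r transcripts touched an exon of its gene, so they do not measure spliced RNA of these genes.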
